A study of Mus musculus with 22 samples.

Results

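Liver of Gcg-/- mice infused with glucagon at 150 µg/d (4 libraries) was set against liver of wild-type (WT) mice that had no infusion (3 libraries), 7 of the 22 libraries of the series. The members were all genes of the table, 24475 in number, of which 11590 had a mean of at least 0.5 RPKM over the 22 libraries and were tested. The main groups were Gcg-/- with 150 µg/d (libraries 19 to 22), Gcg-/- without infusion (libraries 4 to 6) and WT without infusion (libraries 1 to 3), each library named by the running number in its label. Set beside them near the end were WT with 150 µg/d (libraries 15 to 18) and Gcg-/- with 30 µg/d (libraries 11 to 14). The fit also held WT with 30 µg/d (libraries 7 to 10). Gcg-/- mice lack the gene for glucagon, and infused animals received glucagon itself, named Gcg in the labels. The labels give the tissue, the genotype and the dose, but not the strain, age, sex, length of infusion or number of mice behind a library. The p-values given here set a difference between groups against the spread of libraries within groups, pooled over the 6 groups of the fit. Whether that spread is one between mice is not known. The question put to the comparison is which genes a high dose of glucagon brings back to the level of intact, untreated animals, which it leaves apart from that level and which it carries past it.

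Glucagon is the pancreatic hormone of the fasting state. It binds its receptor Gcgr on hepatocytes, raises cyclic AMP and activates protein kinase A, which phosphorylates the transcription factor CREB. In liver it is known to raise the breakdown of amino acids, the urea cycle and gluconeogenesis, and rising amino acids in turn stimulate the alpha cells that make it.

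Levels are given in RPKM, a read count divided by transcript length in kb and by the size of the library. Estimated depth was 11.55 to 17.6 M reads in the 10 libraries of the main groups, so that 1 read on a transcript of 1 kb was worth 0.0568 to 0.0866 RPKM. Gcg itself was listed at 0 in every library of either genotype, so its level in this tissue does not check the labels. Gcgr stood at 79.2 ± 8.79 RPKM in infused Gcg-/- liver (SD, n = 4), 83 ± 11 in uninfused Gcg-/- liver and 89.8 ± 3.83 in WT (n = 3 each). The hepatocyte markers summed to 39430 to 51370 RPKM in infused Gcg-/- liver, 52810 to 79870 in uninfused Gcg-/- liver and 46710 to 51370 in WT. Of the 10 pancreas and adipose markers 6 were at 0 in all 7 infused Gcg-/- and WT libraries. Stellate cell and fibroblast markers summed to 192.3 to 212.8 RPKM in infused Gcg-/- liver, 197.4 to 208.7 in uninfused Gcg-/- liver and 152.9 to 166.4 in WT, with 9 of 16 higher in infused Gcg-/- liver than in WT at an unadjusted p under 0.05 (4.29% of all genes) and none after adjustment by limma. The part of these cells in the differences from WT below was not tested.

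Library 19 stood apart within the infused Gcg-/- group. Among the 179 genes changed by loss of Gcg (below), it was the infused library nearest to the mean of uninfused Gcg-/- liver in 86, against 34, 32 and 27 for libraries 20, 21 and 22. Its Spearman correlation with the other infused Gcg-/- libraries across genes was 0.969 to 0.976, and that among the other 3 was 0.979 to 0.983. Got1, the cytosolic aspartate aminotransferase, had 23.8 RPKM there and 189, 262 and 239.8 in libraries 20 to 22. Values without it are given below for the genes and lists that it moves most. Library 4, an uninfused Gcg-/- library, stood apart in genes that differ between the sexes in mouse liver: Cyp2b9, a female-biased cytochrome, had 111 RPKM there and at most 1.61 in the other 9 libraries of the main groups. Mup20, a male-biased urinary protein gene, had 856 RPKM in library 4 and 3113 to 14147 in the others. The uninfused log2 differences from WT of the sex chromosome genes Ddx3y, Eif2s3y, Kdm5d and Uty were 0.19, 0.27, -0.02 and -0.04. Without library 4 they were 0.17, 0.28, -0.04 and -0.07. Why library 4 stood apart was not tested.

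At 150 µg/d the Gcg-/- liver differed from uninfused WT in 23 genes, 10 higher and 13 lower. Against the same WT libraries, Gcg-/- liver without infusion differed in 179 genes, 92 higher and 87 lower. These counts are 0.198% of the 11590 genes tested for the infused group (0.0863% higher, 0.112% lower) and 1.54% for the uninfused group (0.794% higher, 0.751% lower), at a limma adjusted p under 0.05 on log2(RPKM + 1). Between infused and uninfused Gcg-/- liver 315 genes differed (2.72%), 152 higher with infusion (1.31%) and 163 lower (1.41%). After each library was rescaled to 1 sum, 11 genes were higher and 9 lower in infused Gcg-/- liver than in WT, and after median-of-ratios scaling 227 were higher and 119 lower in infused than in uninfused Gcg-/- liver. Before adjustment 1343 genes (11.6%) had a p under 0.05 in infused Gcg-/- liver against WT. Without library 19 the count was 42, with 19 of the 23 among them, and without library 3, a WT library, it was 0 by limma (793 genes at an unadjusted p under 0.05). Leaving out library 1, 2, 20, 21 or 22 gave 4, 5, 10, 5 and 3 genes. Btg3, Nr1i2 and Mocos stayed called in 6 of these 7 fits, and each of the other 20 in at most 2.

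Among the amino acid enzymes called lower in uninfused Gcg-/- liver, Oat, Sds and Gls2 had the largest differences, and with infusion their libraries lay on either side of WT. Oat, the ornithine aminotransferase (chromosome 7, 132557475 to 132576398, GRCm38), had 245, 910.4, 822 and 855 RPKM in infused Gcg-/- liver, 52.1, 71.9 and 80.6 in uninfused Gcg-/- liver and 556, 752 and 722 in WT. Library 19 lay below every WT library, and the other 3 infused libraries lay above every one. The fitted difference of infused Gcg-/- liver from WT was -0.09 ± 0.39 (log2, SE, limma adjusted p = 0.957), with a 95% interval of -0.92 to 0.73, and without library 19 it was 0.36 ± 0.31. Sds, the serine dehydratase (chromosome 5, 120476547 to 120483932), had 52.9, 243, 269 and 235 RPKM in infused Gcg-/- liver, 33.7, 11.9 and 24.9 in uninfused Gcg-/- liver and 125, 140.4 and 128 in WT. Here too library 19 was near the uninfused level and the other 3 were above all WT values, with a log2 difference of 0.37 ± 0.58 from WT (SE) and 0.92 ± 0.52 without library 19. Gls2, the liver glutaminase (chromosome 10, 128194635 to 128210004), had 70.0, 210.3, 213 and 207 RPKM in infused Gcg-/- liver, 44.3, 20.7 and 30.4 in uninfused Gcg-/- liver and 155, 157 and 179.9 in WT. Without library 19 the log2 difference of Gls2 from WT was 0.36, and with it -0.03. In all of these enzymes 1 infused library lay below every WT library and 3 above every one.

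**Figure D1:**
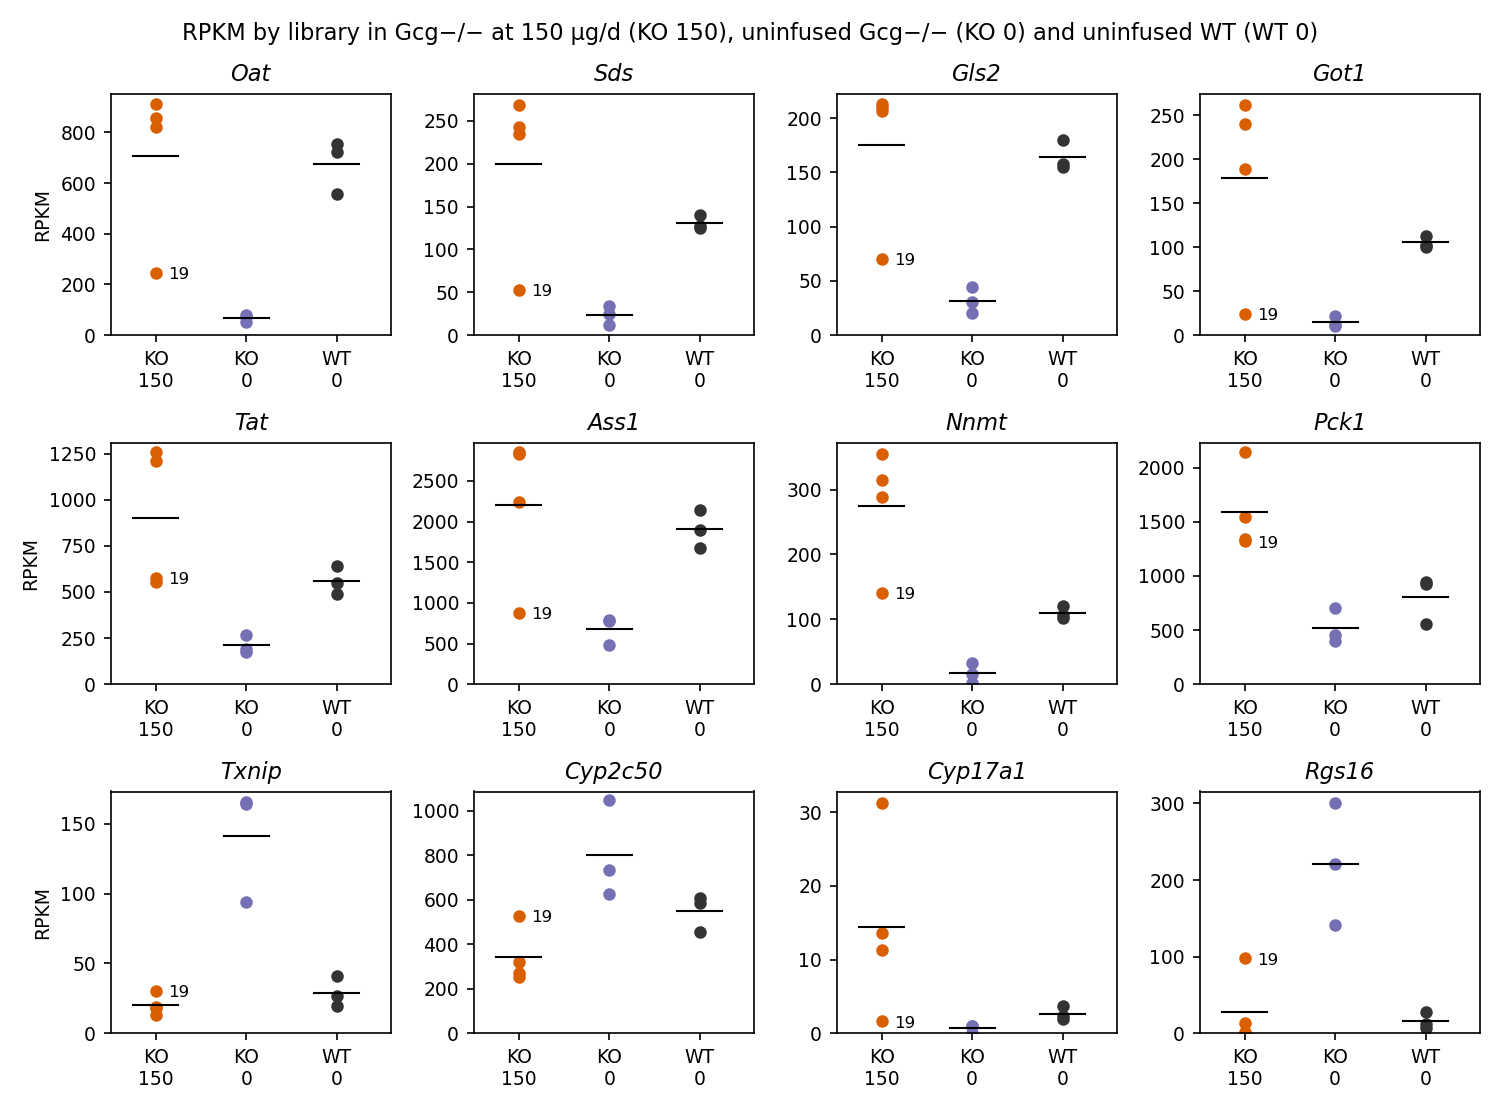
RPKM of 12 genes (vertical axis, linear) in each library of Gcg-/- at 150 µg/d (KO 150), uninfused Gcg-/- (KO 0) and uninfused WT (WT 0), with the mean as a line. Library 19 is marked: it lies at 245 RPKM for Oat and 52.9 RPKM for Sds, below all WT libraries, while the other infused libraries lie above them.

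Gnmt, glycine N-methyltransferase, which disposes of surplus methyl groups, had 660.4, 1414, 1392 and 1151 RPKM in infused Gcg-/- liver, 458, 418 and 497 in uninfused Gcg-/- liver and 911, 1072 and 1191 in WT. Its mean was 1155 ± 350.3 RPKM with infusion (SD, n = 4) and 1058 ± 140.3 in WT (n = 3), and its log2 difference from WT was 0.07 with library 19 and 0.32 without it. Qdpr, which recycles the cofactor of phenylalanine hydroxylase, averaged 225 ± 50.3 RPKM in infused Gcg-/- liver, 139 ± 3.79 in uninfused Gcg-/- liver and 247 ± 29.6 in WT. Other enzymes of the group came only part of the way. Tdo2, the tryptophan dioxygenase, had 508, 887, 708 and 739.9 RPKM in infused Gcg-/- liver, 421, 488 and 621 in uninfused Gcg-/- liver and 955, 848 and 990.5 in WT. Ftcd, of histidine breakdown, averaged 117 ± 13 RPKM with infusion, 80.4 ± 3.29 without it and 143 ± 4.52 in WT, where all 4 infused libraries (99.98 to 132 RPKM) lay below all WT libraries (138 to 147 RPKM). The difference of Ftcd from WT, -0.30 ± 0.13 (log2, SE), did not pass the test (limma adjusted p = 0.4).

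Over 6 lists of amino acid breakdown (serine and glycine, glutamine and transaminases, aromatic, histidine, branched-chain, methionine) 76 genes were tested. None was called in infused Gcg-/- liver against WT by limma. Only 0.198% of all genes were called there, so none among 76 does not set these genes apart. At an unadjusted p under 0.05 there were 12, 2 higher and 10 lower, beside 4.29% and 7.3% of all genes. In uninfused Gcg-/- liver 10 were called lower (0.751% of all genes): Sds, Gls2, Oat, Qdpr, Tdo2, Haao, Ftcd, Bckdha, Ivd and Gnmt. The median log2 difference from WT over the 76 was -0.0904 with infusion and -0.313 without it, beside -0.0235 and 0.0109 over all genes tested. The mean log2 level of the 76 was 6.116 in library 19 and 6.445 to 6.57 in libraries 20 to 22, against 5.858 to 6.012 in uninfused Gcg-/- liver and 6.377 to 6.505 in WT, and without library 19 the median difference was -0.0673. Between infused and uninfused Gcg-/- liver 15 of the 76 were called, all higher with infusion, against 1.31% called higher over all genes. The 95% interval of the difference from WT lay within 1 log2 unit for 65 of the 76, and for 93.5% of all genes tested. The 21 genes of branched-chain amino acid breakdown had a median of -0.179 with infusion and -0.249 without it, and 6 of the 10 lower at an unadjusted p were among them. Bckdha, a subunit of the keto acid dehydrogenase, stood at 109 ± 2.84 RPKM with infusion, 86.9 ± 4.39 without it and 117 ± 3.70 in WT.

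Got1, Tat, Ass1 and Cps1 had their highest mean with infusion and their lowest without it in Gcg-/- liver, and none passed the test against WT in either state. Got1 averaged 179 ± 108 RPKM in infused Gcg-/- liver, 14.6 ± 6.02 in uninfused Gcg-/- liver and 106 ± 6.58 in WT, and libraries 20 to 22 alone averaged 230 ± 37.7 RPKM. Tat, which begins tyrosine breakdown, had 577, 1209, 1256 and 554 RPKM with infusion, 189, 175 and 269 without it and 489, 638 and 551 in WT. Ass1, argininosuccinate synthase, had 877, 2836, 2854 and 2246 RPKM with infusion, 791, 486 and 775 without it and 1676, 1893 and 2138 in WT. Without library 19 the log2 difference of Ass1 from WT was 0.47, and with it 0.08. Cps1, which feeds ammonia into the cycle, averaged 1117 ± 323, 544 ± 97.2 and 873 ± 84.0 RPKM in infused Gcg-/-, uninfused Gcg-/- and WT liver, a log2 difference of infused Gcg-/- liver from WT of 0.30 with library 19 and 0.54 without it. The 8 tested urea cycle genes had a median log2 difference from WT of 0.192 with infusion (0.505 without library 19) and -0.62 without it, and 4 of them were called higher in infused than in uninfused Gcg-/- liver, against 1.31% of all genes. In infused Gcg-/- liver 7 of the 8 were above WT and 1, Otc, named after its values were seen, below it (-0.47 ± 0.14, unadjusted p = 0.00414, limma adjusted p = 0.181). Of 17 amino acid transporters 4 were called higher and 1 lower with infusion than without it (1.31% and 1.41% of all genes), and Slc43a1, a transporter of large neutral amino acids, had 3.22 ± 0.682, 1.61 ± 0.0906 and 4.22 ± 0.414 RPKM in infused Gcg-/-, uninfused Gcg-/- and WT liver.

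For each of the 179 genes called between uninfused Gcg-/- and WT liver, the share of the difference that remained at 150 µg/d was taken as the infused log2 difference from WT over the uninfused one. A gene was named restored where -25 to 25% remained, partly restored at 25 to 75%, left unrestored above 75% and overshot below -25%. By that measure 60 genes (33.5%) were restored, 94 (52.5%) partly restored, 19 (10.6%) left unrestored and 6 (3.35%) overshot. The median share remaining was 31.5%, with quartiles of 14.2 and 54%, and the median absolute log2 difference from WT was 0.228 with infusion and 0.67 without it. The same WT libraries enter both differences, and the genes were chosen for a large difference without infusion, so a smaller one with infusion is partly fixed by the choice and these shares are a description. The gene just inside the 25% line had 24.6% remaining and the next one 25.2%. The list of 179 itself rests on few libraries: 16 genes were called without library 4, 83 without library 5, 294 without library 6, and 37, 10 and 9 without library 1, 2 or 3. Without library 19 the counts among the 179 were 69 restored, 80 partly restored, 17 left unrestored and 13 overshot, with a median of 27.4% remaining.

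**Figure D2:**
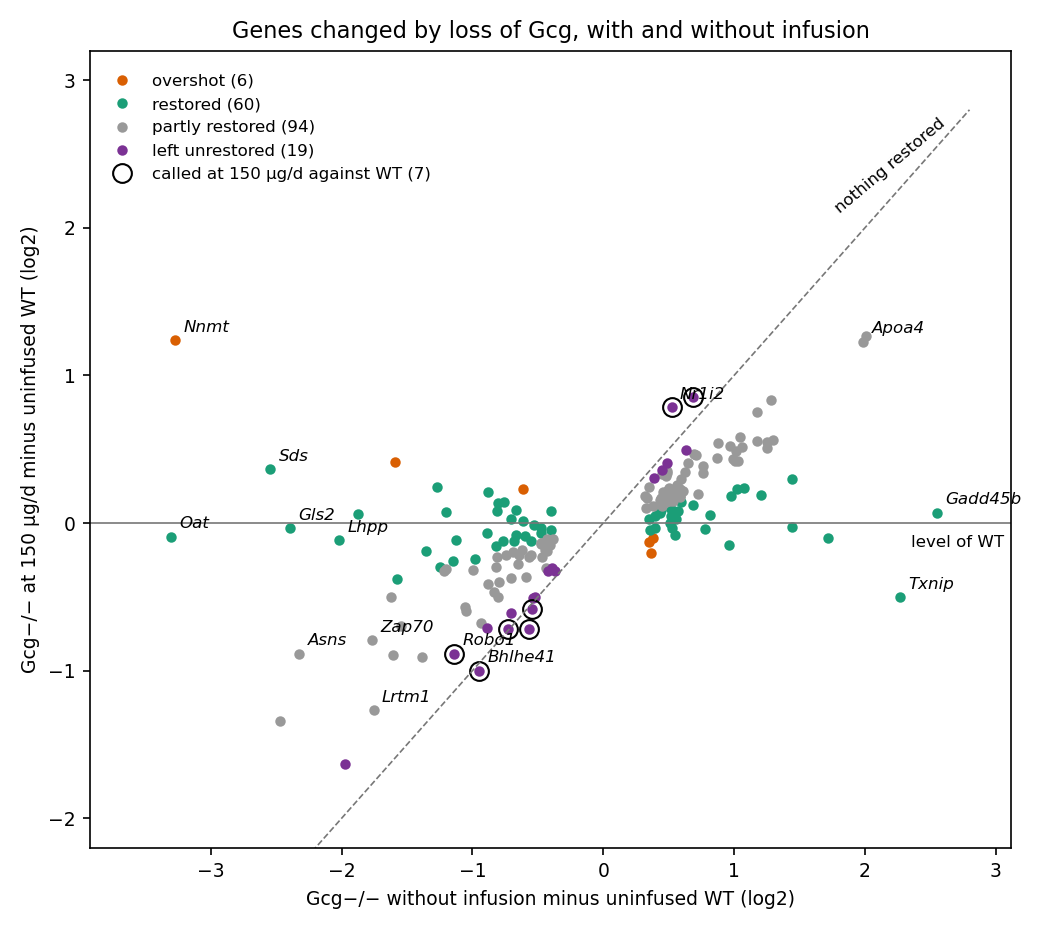
The 179 genes called between uninfused Gcg-/- and WT liver, each plotted by its log2 difference from WT without infusion (horizontal) and at 150 µg/d (vertical), coloured by the share that remained. Points on the horizontal line are at the WT level, points on the dashed line kept their whole difference, and circles mark the 7 genes also called at 150 µg/d.

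Promoters were read for the palindrome TGACGTCA, the full cyclic AMP response element to which CREB binds, and for its core TGACG, on both strands in the 250 bases before each start that RefSeq gives on GRCm38.p6. The core is contained in the palindrome. Of all 32851 RefSeq promoters, 17.8% held the core and 1.55% the palindrome. Of 179 promoters found for 137 of the genes changed by loss of Gcg, 19% held the core and 1.68% the palindrome. Of 56 found for 45 of the 60 restored genes, 16.1% held the core and 1.79% the palindrome, and of 22 found for 17 of the 23 genes called at 150 µg/d, 4.55% held the core, in the promoter of Dst. The 3 genes with the palindrome, Maff, Zap70 and Meg3, are shown with that of Pck1, whose element is the textbook case and has only the core. Capitals mark the letters found, read 5′ to 3′ on the gene's strand, all of them the plus strand.
Maff, chr15:79347270-79347519: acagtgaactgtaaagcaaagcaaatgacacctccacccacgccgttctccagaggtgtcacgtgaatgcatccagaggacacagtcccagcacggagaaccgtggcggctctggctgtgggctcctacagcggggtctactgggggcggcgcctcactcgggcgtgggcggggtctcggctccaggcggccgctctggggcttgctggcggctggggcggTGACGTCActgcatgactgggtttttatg
Zap70, chr1:36761548-36761797: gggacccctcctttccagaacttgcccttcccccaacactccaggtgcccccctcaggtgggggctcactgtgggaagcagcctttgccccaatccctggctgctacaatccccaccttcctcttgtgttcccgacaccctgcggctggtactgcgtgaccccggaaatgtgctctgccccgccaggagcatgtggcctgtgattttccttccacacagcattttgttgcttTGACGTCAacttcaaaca
Meg3, chr12:109540746-109540995: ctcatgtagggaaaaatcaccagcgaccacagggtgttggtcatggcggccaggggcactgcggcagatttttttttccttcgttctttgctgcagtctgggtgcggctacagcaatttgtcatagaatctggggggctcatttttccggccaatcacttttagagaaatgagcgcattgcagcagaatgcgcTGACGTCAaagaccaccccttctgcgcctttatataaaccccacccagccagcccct
Pck1, chr2:173152823-173153072: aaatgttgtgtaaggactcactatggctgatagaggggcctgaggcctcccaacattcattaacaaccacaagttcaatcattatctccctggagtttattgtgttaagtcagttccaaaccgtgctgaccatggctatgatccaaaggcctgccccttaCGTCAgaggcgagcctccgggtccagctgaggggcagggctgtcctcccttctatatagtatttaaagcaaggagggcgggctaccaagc

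Of the genes with the palindrome, Maff was called higher and Zap70 and Meg3 lower in uninfused Gcg-/- liver than in WT. Maff, a small Maf transcription factor, had 2.65, 2.38, 3.66 and 2.70 RPKM in infused Gcg-/- liver, 13.1, 6.65 and 4.54 in uninfused Gcg-/- liver and 3.43, 2.20 and 1.10 in WT, and was restored with 20.9% remaining (28.2% without library 4). Zap70 had the opposite order, with 1.76, 3.53, 2.62 and 3.36 RPKM with infusion, 0.572, 1.69 and 0.637 without it and 4.85, 6.58 and 5.18 in WT. Meg3, an imprinted non-coding RNA, had 1.40, 1.53, 2.99 and 2.84 RPKM with infusion, 0.175, 0.288 and 0.928 without it and 5.74, 2.90 and 2.23 in WT, with 30.9% remaining. A match is a string of letters in this window, and the share among these genes was near that of all promoters.

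Genes that loss of Gcg raised came down to WT in 28 of the 60 restored cases. Txnip, which binds thioredoxin and rises with glucose in liver, had 30.5, 18.2, 18.6 and 13.1 RPKM in infused Gcg-/- liver, 164, 165 and 93.9 in uninfused Gcg-/- liver and 26.6, 40.8 and 19.3 in WT. No infused library came near an uninfused Gcg-/- one, and the infused and WT ranges overlapped. Inhba, the activin A subunit, had 1.71, 1.37, 1.5 and 2.03 RPKM with infusion, 7.92, 8.39 and 8.61 without it and 2.55, 0.883 and 2.39 in WT. The stress genes Gadd45b and Gadd45a averaged 0.586 ± 0.283 and 4.89 ± 2.32 RPKM with infusion, 10.3 ± 8.90 and 15.3 ± 7.52 without it, and 0.5 ± 0.204 and 4.69 ± 1.23 in WT. Slc17a2, a phosphate transporter family member, averaged 54.7 ± 3.07, 94.0 ± 13.4 and 52.8 ± 4.77 RPKM in the same order.

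Some endothelial genes were among those restored. Cdh5, the cadherin of endothelial junctions, had 9.11, 8.05, 9.11 and 9.51 RPKM in infused Gcg-/- liver, 13.3, 12.5 and 12.5 in uninfused Gcg-/- liver and 9.64, 8.35 and 7.91 in WT. Pecam1 averaged 5.52 ± 0.408, 7.28 ± 0.289 and 5.31 ± 0.450 RPKM, and Tek, the angiopoietin receptor, 2.93 ± 0.267, 4.21 ± 0.295 and 3.07 ± 0.25 RPKM, in the same order. The endothelial list summed to 155.4 to 183.2 RPKM with infusion, 193.9 to 197.3 without it and 144.4 to 162.3 in WT. Of its 19 tested genes 5 were called higher in uninfused Gcg-/- liver than in WT (0.794% of all genes) and 4 lower in infused than in uninfused Gcg-/- liver (1.41%). In infused Gcg-/- liver against WT limma called no member (0.198% of all genes), and 1 had an unadjusted p under 0.05 (11.6% of all genes). With infusion 12 of the 19 lay above WT and 7 below it. Members differed: of the log2 difference without infusion 40.6% remained in Lyve1, 55% in Emcn and 56.9% in Flt4, against 9.25% in Cdh5. In whole liver fewer cells of a type and less RNA per cell cannot be told apart.

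Restored genes outside amino acid metabolism included Lhpp, a phosphatase, with 17, 55.0, 49.2 and 49.8 RPKM in infused Gcg-/- liver, 10.2, 9.40 and 9.52 in uninfused Gcg-/- liver and 35.5, 46.6 and 46.0 in WT, a log2 difference from WT of -0.12 with library 19 and 0.27 without it. Dpyd, which begins the breakdown of pyrimidines, averaged 143 ± 25.5, 73.0 ± 3.64 and 129 ± 12.9 RPKM. The 95% interval of the difference from WT lay within 1 log2 unit for 57 of the 60 restored genes, and for 149 of all 179. Of the 60, 54 were called between infused and uninfused Gcg-/- liver, a comparison that uses the libraries by which they were chosen. Of 49 genes that differed by at least 1 log2 unit without infusion, 20 were restored, 25 partly restored, 2 left unrestored and 2 overshot.

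Overshoot past WT was seen in 6 genes, of which limma called none against WT (2 at an unadjusted p under 0.05). Nnmt, which methylates nicotinamide (chromosome 9, 48538002 to 48607655), had 141, 288, 315 and 355 RPKM in infused Gcg-/- liver, 1.52, 16.4 and 32.8 in uninfused Gcg-/- liver and 120.0, 106 and 103 in WT. All 4 infused libraries lay above all WT ones, yet the log2 difference of 1.24 ± 0.55 (SE) had a limma adjusted p of 0.394, and without library 19 it was 1.53 ± 0.57 with an adjusted p of 0.275. Ctcflos, an antisense transcript, averaged 5.05 ± 2.57, 0.420 ± 0.260 and 3.28 ± 0.840 RPKM in infused Gcg-/-, uninfused Gcg-/- and WT liver, and whether strand was used in counting is not given in the sources used here. Tmem120a averaged 33.0 ± 3.84, 18 ± 2.51 and 27.9 ± 2.05 RPKM. Bri3bp, Tmcc2 and Cyp2d10 lay below WT with infusion, at log2 differences of -0.21, -0.13 and -0.10, and above it without.

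Pck1 and Mat1a were above WT in every infused library, although neither was called between uninfused Gcg-/- liver and WT. Pck1, the cytosolic enzyme that commits carbon to gluconeogenesis (chromosome 2, 173153073 to 173159274), had 1319, 1542, 2145 and 1344 RPKM in infused Gcg-/- liver, 699.8, 403 and 457 in uninfused Gcg-/- liver and 941, 923 and 559 in WT. The groups did not overlap, and the log2 difference from WT of 0.98 ± 0.33 (SE) did not pass the test (limma adjusted p = 0.247). G6pc, which releases free glucose, averaged 120.2 ± 62.7, 250.4 ± 83.9 and 161 ± 41.8 RPKM in infused Gcg-/-, uninfused Gcg-/- and WT liver, with overlapping ranges. Mat1a, which makes S-adenosylmethionine, averaged 1229 ± 205, 583 ± 164 and 742 ± 115 RPKM, again with no overlap between infused Gcg-/- liver and WT and an adjusted p of 0.268. Of the 22 tested genes of gluconeogenesis none was called against WT by limma, where 0.198% of all genes were called. At an unadjusted p under 0.05 there were 4, all higher, beside 4.29% of all genes. In Gcg-/- liver 2 of the 22 were called higher and 1 lower with infusion than without it (1.31% and 1.41% of all genes).

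Several drug-metabolizing cytochromes had lower levels than WT with infusion and higher levels without it. Cyp2c37 had 127, 58.1, 41.7 and 52.8 RPKM in infused Gcg-/- liver, 445, 374 and 179 in uninfused Gcg-/- liver and 92.2, 141 and 159.6 in WT, a log2 difference from WT of -0.99 with all libraries and -1.32 without library 19. Cyp2c50, a close relative whose reads may be shared with it, had 526, 319.7, 252 and 268 RPKM with infusion, 735, 1046 and 626 without it and 453, 609 and 586 in WT, and only library 19 lay within the WT range. Its log2 difference from WT was -0.74 (limma adjusted p = 0.181) with all libraries and -0.96 (adjusted p = 0.0397) without library 19. Over 27 drug cytochromes and xenobiotic receptors the median log2 difference from WT was -0.317 with infusion (-0.326 without library 19) and 0.523 without it (0.205 without library 4), and the list summed to 6737 to 9817 RPKM with infusion, 10690 to 14410 without it and 11240 to 12660 in WT. Between infused and uninfused Gcg-/- liver 5 of the 27 were called lower and 1 higher with infusion, against 1.41% and 1.31% of all genes. Against WT the xenobiotic receptor Nr1i2 was the 1 member called, and it was higher (0.0863% of all genes). Cyp17a1, a steroid hydroxylase, lay above WT in libraries 20 to 22 (11.3, 13.7 and 31.3 RPKM) but not in library 19 (1.60), beside 0.973, 0.0385 and 0.9753 in uninfused Gcg-/- liver and 1.88, 2.37 and 3.66 in WT. Its log2 difference from WT was 1.64 (adjusted p = 0.267) with library 19 and 2.34 (adjusted p = 0.0296) without it.

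**Figure D3:**
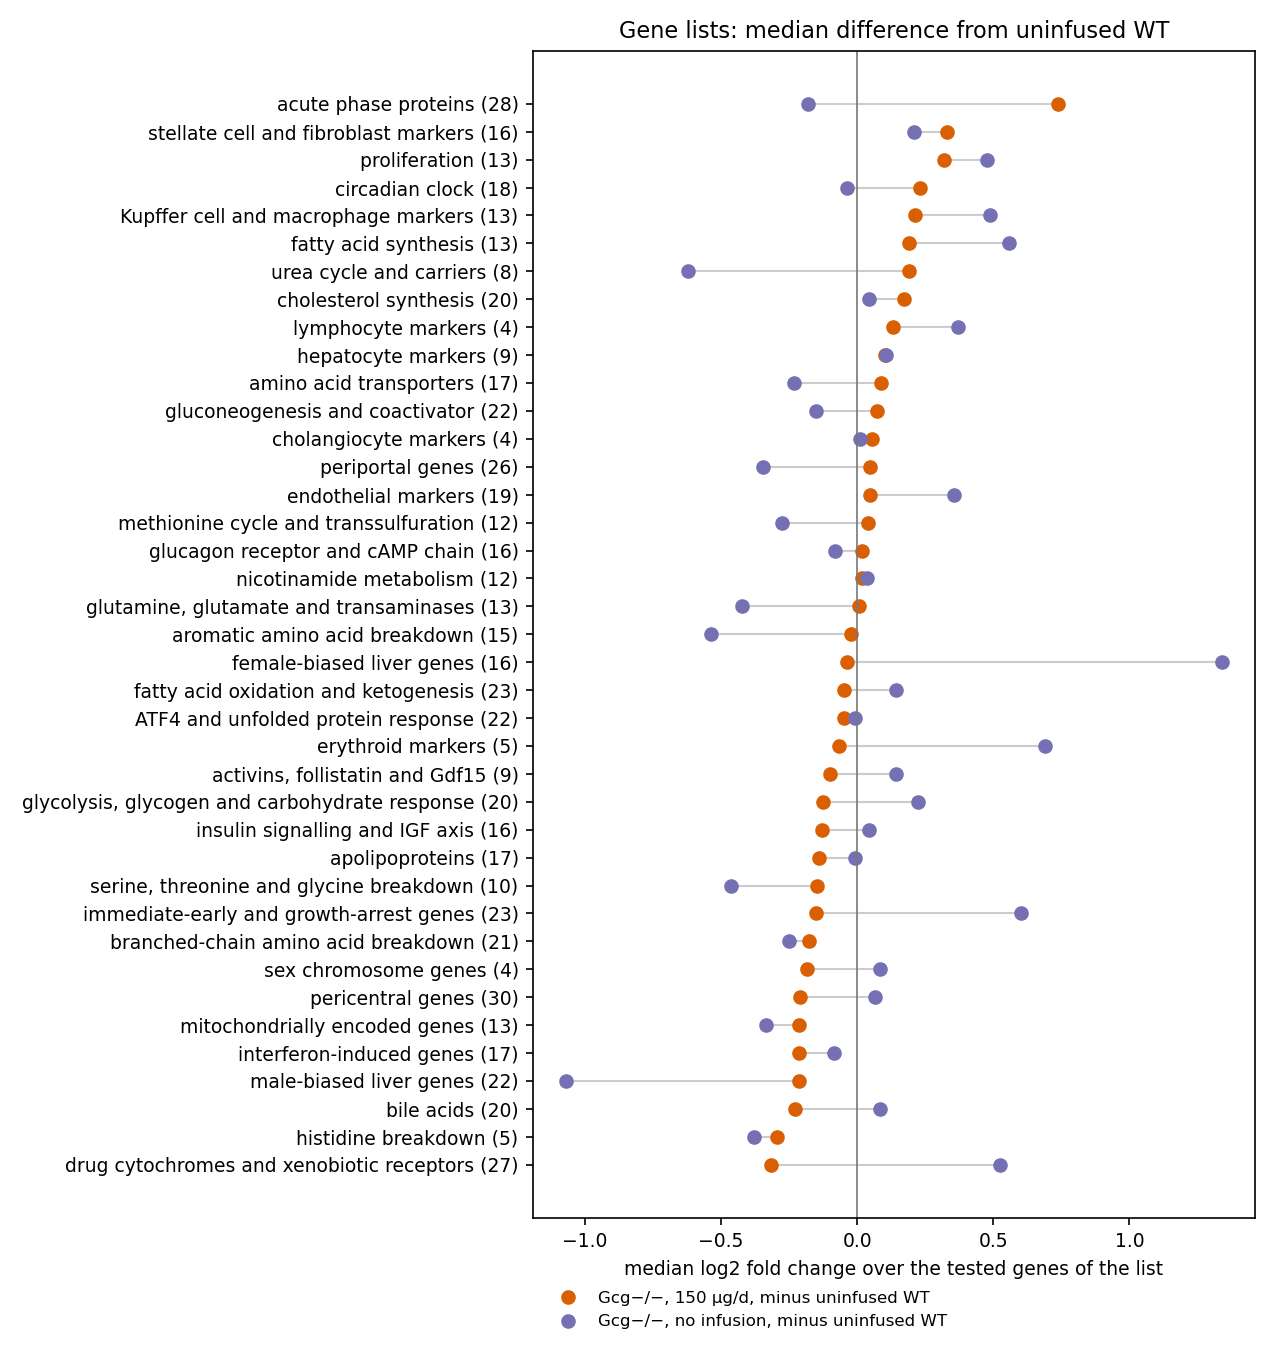
Median log2 difference from uninfused WT for gene lists with at least 4 tested genes (number in brackets), in Gcg-/- at 150 µg/d (orange) and in uninfused Gcg-/- liver (purple). Lists of amino acid breakdown lie nearer to 0 with infusion than without it, while drug cytochromes lie at -0.317 with infusion and at 0.523 without it.

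Lists of lobule position, bile acids, the clock and the acute phase had 2 calls against WT, Pigr and Bhlhe41. Of 26 periportal genes 1 was called lower (Pigr), and of 30 pericentral genes none was called by limma (10 at an unadjusted p under 0.05, 2 higher and 8 lower). Over all genes tested 0.198% were called by limma, 0.112% lower. At an unadjusted p under 0.05, 4.29% of all genes were higher and 7.3% lower. The pericentral markers Glul and Axin2 averaged 407 ± 91.4 and 1.52 ± 0.269 RPKM in infused Gcg-/- liver, and 421 ± 14.8 and 1.84 ± 0.362 RPKM in WT. Acute-phase proteins had the highest median among the 41 lists, 0.738 (0.522 without library 19), with no member called by limma. At an unadjusted p under 0.05 there were 6 of 28, 5 higher and 1 lower. Levels varied widely between libraries: Saa1 had 8245, 169, 3784 and 5234 RPKM with infusion and 2492, 1192 and 96.9 RPKM in WT. The bile acid list had a median of -0.229 with infusion and 0.0846 without it. None of its 20 genes was called by limma, and 8 had an unadjusted p under 0.05, 1 higher and 7 lower. Abcb11, the bile salt export pump, had 85.3, 95.3, 84.5 and 97.8 RPKM in infused Gcg-/- liver, 178, 131 and 176 in uninfused Gcg-/- liver and 144, 129 and 155 in WT (-0.65 ± 0.14, limma adjusted p = 0.0774). All infused libraries lay below all those of the other groups. In the circadian list Bhlhe41 was called lower, and Nr1d1, a repressor of the clock, averaged 19.9 ± 7.65, 23.3 ± 8.40 and 48.5 ± 1.09 RPKM in infused Gcg-/-, uninfused Gcg-/- and WT liver, with a limma adjusted p of 0.111 against WT. Times of tissue collection are not in the labels. Rgs16, a brake on G protein signalling, had 97.6, 13.4, 1.19 and 0.754 RPKM in infused Gcg-/- liver, 301, 221 and 142 in uninfused Gcg-/- liver and 11.8, 28.3 and 7.13 in WT, a log2 difference from WT of -0.76 with library 19 and -1.93 without it.

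Partial restoration was the most frequent outcome, 94 of 179 genes. Asns, the asparagine synthetase, had 3.09, 6.41, 6.52 and 10.4 RPKM in infused Gcg-/- liver, 1.11, 1.25 and 2.84 in uninfused Gcg-/- liver and 14.2, 12 and 10.5 in WT, so that every infused library lay between the other groups and 38% of the log2 difference remained. Apoa4, an apolipoprotein, had 70.2, 64.2, 61.8 and 56.7 RPKM with infusion, 303, 47.1 and 85.4 without it and 30.8, 25.4 and 23.2 in WT. The infused values were all above WT, with 61.9% of the difference remaining. Without library 4 the uninfused log2 difference was 1.24, against 1.99 with it, and 99.1% remained, past the 75% line for left unrestored. Nampt, which makes the NAD precursor from nicotinamide, averaged 23.8 ± 3.84, 32.7 ± 4.41 and 12.8 ± 0.775 RPKM in infused Gcg-/-, uninfused Gcg-/- and WT liver. Alpl and Lyve1, chosen after their values were seen, kept 63.7% and 40.6% of their differences (85.6% and 63% without library 4). None of the 94 was called against WT by limma (44 at an unadjusted p under 0.05), and 8 were called against uninfused Gcg-/- liver. Over all genes the shares were 0.198%, 11.6% and 2.72%. The class was set by the same differences, so these counts are a description.

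Among the 19 genes left unrestored, 7 were called at 150 µg/d against WT: Robo1, Bhlhe41, Pdcd4, Gbp6 and Mocos lower, and Nr1i2 and Nupr1 higher. Over all genes 0.198% were called, but the class was set by this same difference from WT. Calls among its members are thus partly built in. Robo1, a guidance receptor that binds Slit ligands (chromosome 16, 72027518 to 73047491), had 0.669, 0.983, 0.921 and 0.783 RPKM in infused Gcg-/- liver, 0.732, 0.506 and 0.384 in uninfused Gcg-/- liver and 1.72, 3.31 and 2.32 in WT. Both Gcg-/- groups lay below every WT library, and the log2 difference of infused Gcg-/- liver from WT was -0.88 ± 0.16 (SE, limma adjusted p = 0.0335). Of its difference 77.4% remained, and 71.9% without library 4 or 73.4% without library 19, on the other side of the 75% line. Mocos, which sulfurates the molybdenum cofactor, had 14.9, 13.8, 14.5 and 13.8 RPKM with infusion, 13.4, 15.1 and 15.3 without it and 20.8, 22.2 and 22.2 in WT (-0.58 ± 0.09, adjusted p = 0.00633). Nr1i2, the xenobiotic receptor PXR (chromosome 16, 38248349 to 38294849), had 33.2, 35.5, 31.0 and 31.2 RPKM with infusion, 31.4, 25.1 and 25 without it and 17.5, 19.2 and 19 in WT (0.79 ± 0.11, adjusted p = 0.00391). For Mocos and Nr1i2 the Gcg-/- groups lay on the same side of WT whether infused or not. Nr1i2 lay further from WT with infusion than without it (0.79 and 0.52 log2 units), so 151% of its difference remained. Gbp6 and Nupr1 had 127% and 124.5% remaining, so left unrestored here includes genes further from WT with infusion. Pdcd4, a translation inhibitor, averaged 38.7 ± 3.31, 38.3 ± 3.27 and 64.5 ± 8.58 RPKM, and Bhlhe41, a repressor of the circadian clock, 0.952 ± 0.366, 1.06 ± 0.645 and 2.86 ± 0.260 RPKM, in infused Gcg-/-, uninfused Gcg-/- and WT liver. Of the other 12, named after their values were seen, Mmp19, a matrix metalloproteinase, averaged 16.5 ± 2.83, 14.4 ± 0.363 and 27.5 ± 3.42 RPKM, and Galt, of galactose breakdown, 12.3 ± 1.44, 12 ± 0.794 and 17.9 ± 1.40 RPKM.

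Read from the 23 genes called at 150 µg/d, 10 were left over, having a difference of at least 0.5 log2 units of the same sign without infusion. The other 13 differed from WT by less than 0.5 log2 units without infusion. In 7 of these 13 the uninfused Gcg-/- and WT libraries nevertheless did not overlap, as was so for 24.8% of all genes tested. The 7 were Dst, Gde1, Pigr, Mcu, Slc35d1, Arhgap10 and 1700001C19Rik. The log2 differences of the 23 from WT ran from 0.395 to 1.46 in size, 4 of at least 1, and in all 23 the infused Gcg-/- and WT libraries did not overlap, as was so for 14.1% of all genes tested, of which 0.198% were called. Btg3, an antiproliferative gene (chromosome 16, 78359860 to 78377181), was the largest rise: it had 5.83, 7.16, 10.2 and 8.42 RPKM in infused Gcg-/- liver, 4.17, 4.05 and 4.03 in uninfused Gcg-/- liver and 2.88, 1.90 and 1.87 in WT (1.46 ± 0.20, limma adjusted p = 0.00391). The infused libraries lay above the uninfused Gcg-/- ones and these above WT, with no overlap. Sod3, the extracellular superoxide dismutase, averaged 13 ± 1.45, 11.4 ± 2.56 and 6.54 ± 1.71 RPKM, and Nupr1, a stress-induced nuclear protein, 1.49 ± 0.379, 1.22 ± 0.376 and 0.366 ± 0.0777 RPKM, in infused Gcg-/-, uninfused Gcg-/- and WT liver. Gbp10 and Gbp6, interferon-induced GTPases with near-identical neighbours on chromosome 5, averaged 2.34 ± 0.383 and 2.58 ± 0.153 RPKM with infusion, 3.30 ± 0.712 and 2.99 ± 0.398 RPKM without it and 5.80 ± 0.549 and 4.88 ± 0.137 RPKM in WT.

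**Figure D4:**
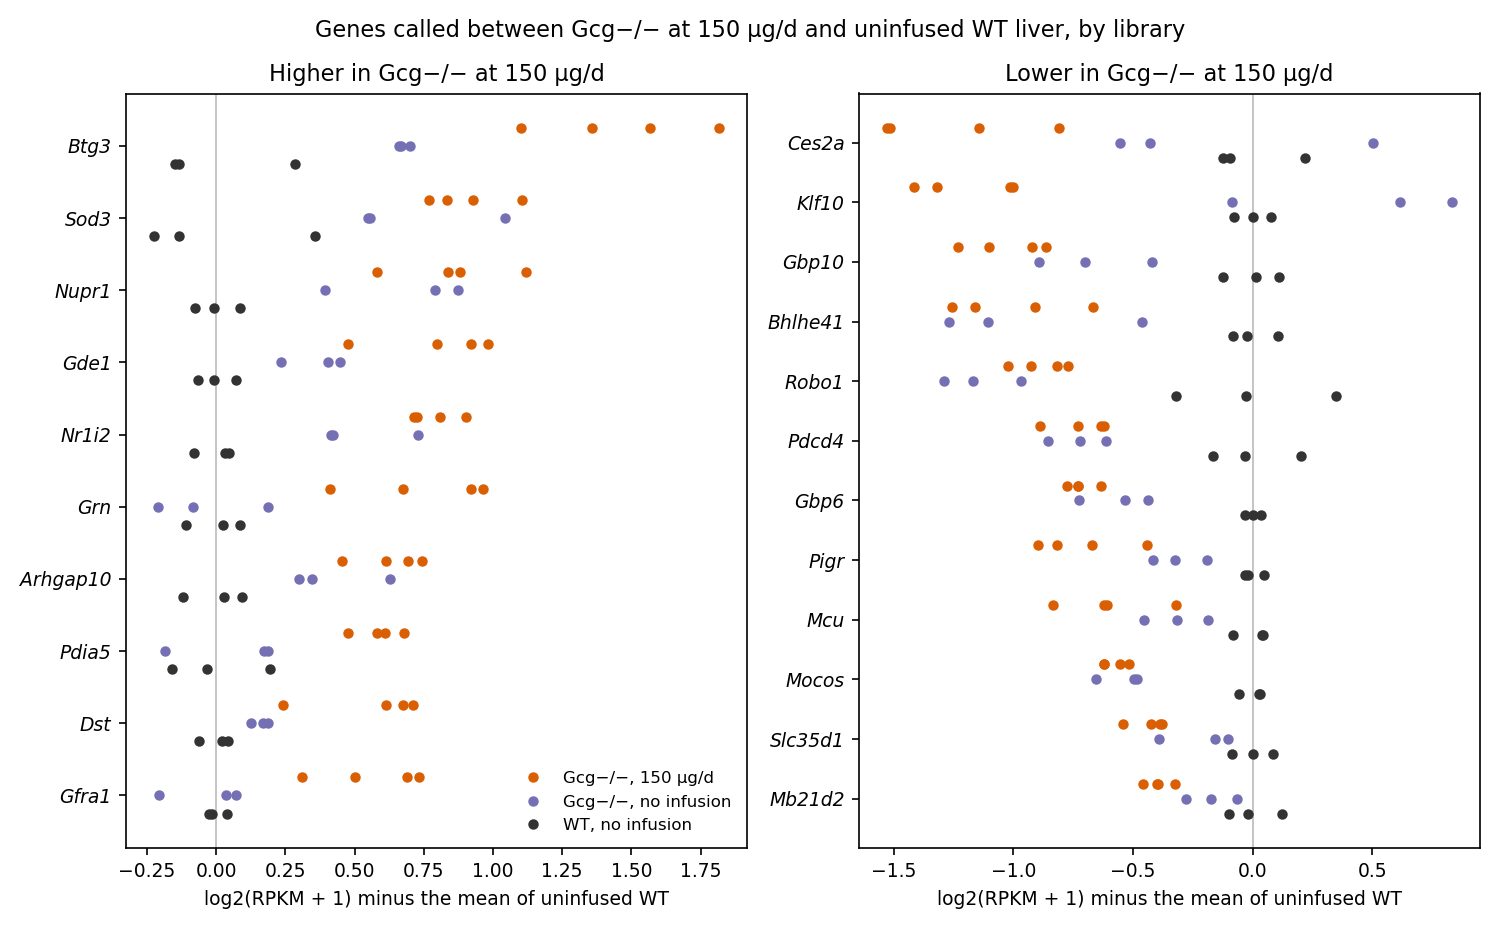
The genes called between Gcg-/- liver at 150 µg/d and uninfused WT (1700001C19Rik not drawn), as log2(RPKM + 1) of each library minus the WT mean (horizontal axis): orange, infused Gcg-/-; purple, uninfused Gcg-/-; black, WT. In every gene the orange and black points do not overlap, and the purple points lie with the orange ones for Mocos and Pdcd4 and with the black ones for Grn and Gfra1.

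Of the 13 genes with a difference under 0.5 log2 units without infusion, 6 were higher and 7 lower than in WT at 150 µg/d. Grn, the precursor of granulins, had 81.8, 67.8, 97.1 and 100.03 RPKM in infused Gcg-/- liver, 57.9, 43.7 and 47.8 in uninfused Gcg-/- liver and 51.6, 54.0 and 47.0 in WT. Gfra1, a receptor of glial cell line-derived neurotrophic factor, averaged 54.6 ± 7.24, 35.8 ± 3.75 and 36.5 ± 0.914 RPKM, Pdia5, a protein disulfide isomerase, 46.9 ± 2.77, 32.4 ± 4.65 and 31.0 ± 4.03 RPKM, and Dst, a cytoskeletal linker, 9.60 ± 1.48, 6.98 ± 0.177 and 6.13 ± 0.271 RPKM. Gde1, a glycerophosphodiester phosphodiesterase, and Arhgap10 completed the higher genes. Klf10, a zinc finger repressor induced by TGF-beta (chromosome 15, 38291464 to 38300711), had 4.25, 4.30, 3.25 and 2.98 RPKM with infusion, 15.2, 17.9 and 8.98 without it and 9.04, 10.2 and 9.63 in WT (-1.19 ± 0.22, limma adjusted p = 0.034). It lay below WT with infusion and, in 2 of 3 libraries, above it without infusion, a mean log2 difference of 0.45 without infusion. Ces2a, a carboxylesterase with several near copies in the genome, had 78.5, 99.4, 60.0 and 60.5 RPKM with infusion, 248, 129.7 and 119 without it and 164, 161 and 204 in WT (-1.25 ± 0.25, adjusted p = 0.042). Pigr, which carries immunoglobulin A into bile, averaged 256 ± 36.8, 335 ± 26.5 and 416 ± 12.6 RPKM, and Mcu, the pore of the mitochondrial calcium uniporter, 4.42 ± 0.809, 5.54 ± 0.605 and 7.14 ± 0.401 RPKM. The lower genes also held Slc35d1, Mb21d2 and 1700001C19Rik, at -0.43, -0.39 and -0.61 log2 units.

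The uninfused WT libraries themselves can be set beside WT liver infused with the same 150 µg/d. For 7 of the 23 called genes the 3 uninfused WT libraries lay outside all other 19 libraries of the series, above them for Mocos, Pdcd4, Pigr and Mcu and below them for Nr1i2, Dst and Gde1. Nr1i2 had 29.0 to 34.6 RPKM in WT liver at 150 µg/d and Mocos 12.6 to 15.5, close to infused Gcg-/- liver. Of the 23, all but Robo1 and Arhgap10 had WT libraries at 150 µg/d outside the uninfused WT range, on the side of infused Gcg-/- liver. Bhlhe41 had 0.70 to 1.01 RPKM in them, Pdcd4 33.6 to 38.0 and Grn 72.2 to 87.5. Robo1 had 2.065 to 3.245 RPKM and Arhgap10 0.702 to 1.43, overlapping uninfused WT. The genes were chosen by the same uninfused WT libraries, which raises such counts. The shares over all genes were not counted, so these counts are a description. At the lower dose, 30 µg/d (libraries 11 to 14 in Gcg-/-), the mean lay between those at 0 and 150 µg/d for Oat and Nnmt, but not for Klf10 or Robo1. In Gcg-/- liver at 0, 30 and 150 µg/d, Oat averaged 68.2 ± 14.6, 164 ± 39.7 and 708 ± 311 RPKM, and Nnmt 16.9 ± 15.6, 60.5 ± 12.2 and 275 ± 93.4 RPKM. Klf10 averaged 14 ± 4.56, 3.30 ± 1 and 3.69 ± 0.679 RPKM, so that it was below uninfused WT at either dose, and Robo1 0.541 ± 0.177, 0.484 ± 0.132 and 0.839 ± 0.141 RPKM, below WT throughout.

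Directly between the genotypes at 150 µg/d 3 genes were called (0.0259% of those tested), all lower in Gcg-/-. They were Robo1 (0.839 ± 0.141 RPKM in Gcg-/- and 2.82 ± 0.556 in WT, n = 4 each, limma adjusted p = 0.0112), Zap70, a tyrosine kinase of T cell receptor signalling (2.82 ± 0.808 and 7.70 ± 1.02 RPKM, adjusted p = 0.0175), and Mmd2, a progestin receptor family member (1.33 to 8.47 RPKM in Gcg-/- and 12.3 to 16.2 RPKM in WT, adjusted p = 0.0112). Uninfused WT liver had 2.09 to 3.98 RPKM of Mmd2, below WT liver at 150 µg/d. Zap70 had kept 44.8% of its difference from uninfused WT, and Mmd2 was restored by that measure with -3.45% remaining. This comparison was added after the data had been seen.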

How the data were processed

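RNA of mouse liver was extracted with Trizol, polyA-selected and made into strand-specific KAPA libraries, per the labels' protocols. CASAVA 1.8.2, FastQC and the build GRCm38 are listed per the submitters' processing notes. Which aligner, counter and annotation were used is not given in the sources used here. The deposited RPKM values, made by the authors, were used as they stand, and 5599 genes were at 0 in every library. With limma 3.58.1 (R 4.3.3) a linear model was fitted on log2(RPKM + 1), which understates changes of low genes, with the 6 groups of the 22 libraries in 1 fit, a mean-variance trend and no covariate, over genes with a mean of at least 0.5 RPKM, with Benjamini-Hochberg adjustment over all of them. SE values are limma's, SD values are over libraries on RPKM. The fit was tested on simulated data.

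Members, the 41 gene lists and tests were chosen with earlier results of these data known. Genes named are, by rule, the 12 largest called rises and falls against WT, the 10 largest for uninfused Gcg-/- liver, up to 3 with the smallest p per list and comparison, and a fixed set of glucagon-related genes. The contrast with infused WT liver the fit without libraries 4 and 19, and the list medians and shares remaining without library 4 or 19 were added after seeing the data, and other genes were named after their values were seen. Coordinates and promoters are RefSeq's on GRCm38.p6, matched for 24375 identifiers, and several promoters, such as those of Sds and Gls2, are not shown. Depth was estimated from the steps between low RPKM values at genes with 1 annotated transcript, and 67.1 to 74.0% of them were whole reads to within 0.1, against 20% by chance, too incomplete for a count test, so depth and counting error are known only roughly.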

Additional observations from a re-analysis of the deposited data

Results flagged for a closer look

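In 9 of 92 genes named or followed, 1 of the 4 infused Gcg-/- libraries stood far from the other 3, by Dixon's 95% test of its gap to the nearest over the group's range. Chance alone flags about 1 in 20 such groups. Library 19 was the distant one in 7 of the 9. It had 244.6 RPKM for Oat, against 822 to 910.4 in libraries 20 to 22, 52.87 for Sds, against 235 to 269, 70.03 for Gls2, against 207 to 213, and 16.96 for Lhpp, against 49.2 to 55.0. These 4 genes were low in uninfused Gcg-/- liver. It had 97.64 RPKM for Rgs16, which was high in uninfused Gcg-/- liver, against 0.754 to 13.4 in the other infused libraries. It also had 92.26 RPKM for the receptor Gcgr, against 73.7 to 76.3, and 2.587 for Trib3, a pseudokinase of the stress response, against 1.12 to 1.20. Library 20 was the distant one for Haao, of tryptophan breakdown, with 303.9 RPKM against 254 to 257, and for Mmp19 with 20.71 RPKM against 15 to 15.1. The reason was not tested.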

How the results depend on the processing

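The number of genes called between infused Gcg-/- and uninfused WT liver, 23, was 19 to 25 with a pseudocount of 0.1 or 0.5, a filter at 2 RPKM, other scalings or a fit of the compared groups alone, which kept 7 of the 23. It was 11 with no filter (8 shared), 715 with array weights (all 23 among them), 47 without libraries 4 and 13, 58 without libraries 4 and 19, a pair chosen after seeing the data, and 0 to 42 when single libraries were left out. The 179 called in uninfused Gcg-/- liver against WT became 945 with array weights, 22 without libraries 4 and 13, 36 without libraries 4 and 19, and 9 to 294 when single libraries were left out; without library 4 it was 16. The number of the 179 that were restored, 60, was 53 to 72 throughout. All 23 called genes kept their sign in every setting run, and of the 69 named genes not called, 21 were called in at least 1 setting. Btg3 and Nr1i2 stayed called in 6 of 7 fits that left out a library, with an adjusted p of 0.0523 without library 3, but Robo1 in 2 of 7. The causes were not tested. No paired analysis was possible because each library has its own running number and the labels pair none. Genes near 0.5 RPKM rest on few reads.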
